A study of Mus musculus with 32 samples.

Results

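The nuclear pore and nuclear transport genes comprised 47 of the 21897 protein-coding genes of the GENCODE M21 annotation of GRCm38. They were taken by symbol alone: numbered nucleoporins (Nup), importins (Ipo), importin alpha and beta (Kpna, Kpnb), transportins (Tnpo) and exportins (Xpo), together with Tpr, Ran and Cse1l. One pseudogene, Kpna2-ps, carried a fitting symbol and was left out as it is not protein-coding.

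Nuclear pores are large channels through the nuclear envelope, built from stacked rings of nucleoporins around a central channel filled with flexible phenylalanine-glycine repeats. Proteins pass through them bound to importins or exportins, and the small GTPase Ran, held in its GTP form inside the nucleus, makes importins release their cargo there and lets exportins bind theirs. An oocyte supplies much of this machinery as stored mRNA and protein, and the 2-cell embryo of the mouse starts to make its own transcripts at zygotic genome activation.

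The study inhibited the histone acetyltransferases CBP and p300 with A-485, or histone deacetylases with TSA (trichostatin A), in wild-type mouse embryos made by in vitro fertilization of B6D2F1/J oocytes with B6D2F1/J sperm from donors aged 6 to 8 weeks. Embryos were cultured in KSOM medium with 10 µM A-485 from 4 to 20 hours post in vitro fertilization (hpi), with 50 nM TSA from 8 to 28 hpi, or with the solvent DMSO as control, and A-485 was washed off before late 2-cell embryos were collected. Total RNA-seq was made from pooled embryos in 8 groups of 2 libraries: zygotes, embryos at early 2-cell and embryos at late 2-cell, each with A-485 or DMSO, and late 2-cell embryos with TSA or with DMSO of a second control group. ATAC-seq peak lists came from embryos at late 1-cell or early 2-cell, each with A-485 or DMSO. Nothing states whether the 2 libraries of a group came from separate fertilizations, so p-values measure the spread between these libraries, which may be technical, and in pooled embryos fewer cells and less RNA per cell cannot be told apart.

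The 16 libraries held 13206163 to 32585987 estimated fragments. The members took 0.86 to 0.897% of them in zygotes and 0.906 to 0.921% in DMSO-treated late 2-cell embryos, against 0.583 and 0.6% after A-485 and 0.479 and 0.506% after TSA. Libraries of A-485-treated late 2-cell embryos also differed in make-up: mitochondrially encoded genes took 5.43 and 5.35% of fragments against 2.44 and 2.35% with DMSO, and the 20 most abundant genes took 32.1 and 32.6% against 20.1 and 19.0%. In DMSO-treated embryos the 6 transcripts of the 2-cell stage (such as Zscan4d and Zfp352) followed the labels, at a summed 7.6 to 8.62 FPKM in zygotes, 387 to 445 in early 2-cell and 148 to 254 in late 2-cell embryos. Their sum was 9.45 and 7.24 FPKM in early and 55.5 and 60.7 FPKM in late 2-cell embryos with A-485, and 434 and 368 FPKM with TSA. The 6 transcripts of major genome activation (such as Hspa8 and Nop56) were abundant in zygotes too, at 739 and 820 FPKM, and summed to 269 and 268 FPKM in early and 645 to 776 FPKM in late 2-cell embryos with DMSO, to 190.0 and 176 FPKM in late 2-cell embryos with A-485 and to 415 and 398 FPKM with TSA. Of these, Pdlim7 did not follow the sum, at 4.62 and 6.89 FPKM in early and 2.3 to 3.84 FPKM in late 2-cell embryos with DMSO. With TSA it stood at 16.15 and 12.65 FPKM. The 6 oocyte and zygote transcripts (such as Gdf9 and Bmp15) summed to 1338 and 1361 FPKM in A-485-treated late 2-cell embryos against 700.0 and 747 with DMSO, and to 716 and 692 FPKM with TSA against 550.0 and 532, with all 6 detected in every group. Oosp1 and Bmp15 made up most of these sums. Zp3 went the other way with A-485 (12.21 and 10.25 against 15.48 and 20.44 FPKM). With TSA, Zp3 (7.93 and 7.62 against 13.94 and 11.76) and Mos (1.32 and 1.46 against 2.77 and 1.68) did. The 6 cumulus cell markers summed to 7.15 to 13.4 FPKM in DMSO-treated late 2-cell embryos and to 1.66 to 3.83 FPKM after inhibitors. Of these, 5 had a mean under 1 FPKM in each late 2-cell group, and Amhr2 made up most of the sum in DMSO-treated embryos. Has2 went the other way with A-485 (1.13 and 1.03 against 0.17 and 0.19 FPKM) and with TSA (0.34 and 0.25 against 0.05 and 0.11). Ptx3 was at 0 FPKM in DMSO-treated late 2-cell embryos and at 0.23 to 0.55 FPKM after inhibitors. The 6 erythroid markers summed to 44.6 and 46.8 FPKM with TSA and to at most 4.71 FPKM elsewhere, and the 5 sperm markers to 1.21 to 18.9 FPKM. The part of embryo stage, library make-up or other cells in the results that follow was not tested.

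Levels are given as CPM, the share of a gene in the counts of its library on a common scale for all libraries, normalized over all 16 libraries with TMM, in the order of the 2 libraries of a group. Fold changes are log2 values with their standard error from edgeR's quasi-likelihood test. A gene "passed" at an adjusted p under 0.05 when 1 of the groups compared averaged 1 FPKM or more, and was called up- or down-regulated when the change was also at least 2-fold. Background shares refer to all genes with that mean FPKM, since only those could be called.

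In DMSO-treated embryos, the members did not follow a common course from zygote to late 2-cell. Some members that were close to absent in zygotes became abundant, while several nucleoporins stored in zygotes were depleted. Of 46 members expressed in this comparison, 11 were called lower and 16 higher, against 28.5% lower and 28.5% higher over all 14004 genes. The median change of the members was 0.03, and that of all genes was -0.06.

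Large gains were seen in importin alpha genes, an import receptor, an exportin and a channel gene. Kpna1, an importin alpha that binds classical nuclear localization signals, stood at 1.21 and 1.04 CPM in zygotes, 50.0 and 41.4 in early 2-cell, and 285 and 249 in late 2-cell embryos. Tnpo3, which imports serine/arginine-rich splicing factors, stood at 2.38 and 2.96, then 25.1 and 16.7, then 296 and 315 CPM. The 3 stages did not overlap for either gene, with log2 changes from zygote to late 2-cell of 7.83 ± 0.17 for Kpna1 and 6.79 ± 0.15 for Tnpo3. Xpot, the exportin for transfer RNA, was at 0.222 and 0.403 CPM in zygotes, 14.3 and 8.99 in early 2-cell and 64.6 and 73.0 in late 2-cell embryos (log2 change 7.72 ± 0.27). Nup62cl, related in sequence to the channel nucleoporin Nup62, was at 0.032 and 0 CPM in zygotes, too low for a fold change, and reached 10.0 and 8.28 CPM in early 2-cell and 19.8 and 21.4 CPM in late 2-cell embryos. Kpna4, another importin alpha, went from 0.922 and 1.34 CPM through 8.11 and 8.47 to 40.6 and 23.6 (log2 change 4.77 ± 0.34).

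Other members were already present in zygotes and rose from there. Ran stood at 28.3 and 29.7 CPM in zygotes, 73.5 and 60.2 in early 2-cell and 102 and 94.8 in late 2-cell embryos. Tpr, the filament of the nuclear basket, stood at 342 and 375, 694 and 610, and 1588 and 1371 CPM, and Xpo1, the main exportin for leucine-rich export signals, at 159 and 147, 254 and 225, and 651 and 589 CPM. All 3 genes were higher at each later stage with no overlap between libraries. Their log2 changes from zygote to late 2-cell were 1.71 ± 0.13, 1.99 ± 0.11 and 1.96 ± 0.10, and that of Ran did not pass with mitochondrial scaling (0.40, adjusted p = 0.0561). Importin beta (Kpnb1), the carrier partner of importin alpha, moved down and then up: 265 and 282 CPM in zygotes, 134 and 135 in early 2-cell and 343 and 355 in late 2-cell embryos.

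The stored transcripts that fell came from several parts of the pore. Nup88, on its cytoplasmic face, stood at 264 and 247 CPM in zygotes and 52.8 and 54.1 in late 2-cell embryos. Nup93, the linker of the inner ring, went from 130 and 126 to 30.6 and 31.2, and the Y complex members Nup85 from 95.9 and 89.6 to 16.4 and 17.3 and Nup37 from 40.7 and 38.5 to 3.42 and 6.46. The log2 changes were -2.31 ± 0.11, -2.10 ± 0.12, -2.51 ± 0.14 and -3.06 ± 0.27, with zygote libraries above all late 2-cell libraries in each case. Kpna7, an importin alpha found mainly in oocytes and early embryos, went from 229 and 231 CPM to 18 and 26.1 (log2 change -3.44 ± 0.17). Nup98, which gives the channel much of its repeat mesh, moved little, from 736 and 705 to 613 and 616 CPM (log2 change -0.28 ± 0.09). This change passed, but did not without either zygote library (-0.25 and -0.35) or with RLE size factors (-0.21).

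From zygote to early 2-cell, 12 of 45 expressed members were called lower and 6 higher, where 22.5% and 16.9% of all genes were, and with mitochondrial scaling 30 were lower. From early to late 2-cell, 2 of 46 (Kpna7 and Nup37) were called lower and 19 higher, where 13.2% and 23.6% of all genes were. In both intervals the members and all genes leaned the same way. When libraries were scaled to the 13 mitochondrially encoded protein genes, which lowered the median of all genes from zygote to late 2-cell by 1.3, 25 members were called lower and 8 higher over that interval, and Cse1l and Kpnb1, higher in late 2-cell embryos with TMM (0.67 ± 0.15 and 0.30 ± 0.10), came out lower. With TMM, the change of Cse1l did not pass without the second zygote library (0.47), nor that of Kpnb1 without either (0.26 and 0.31).

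**Figure D1:**
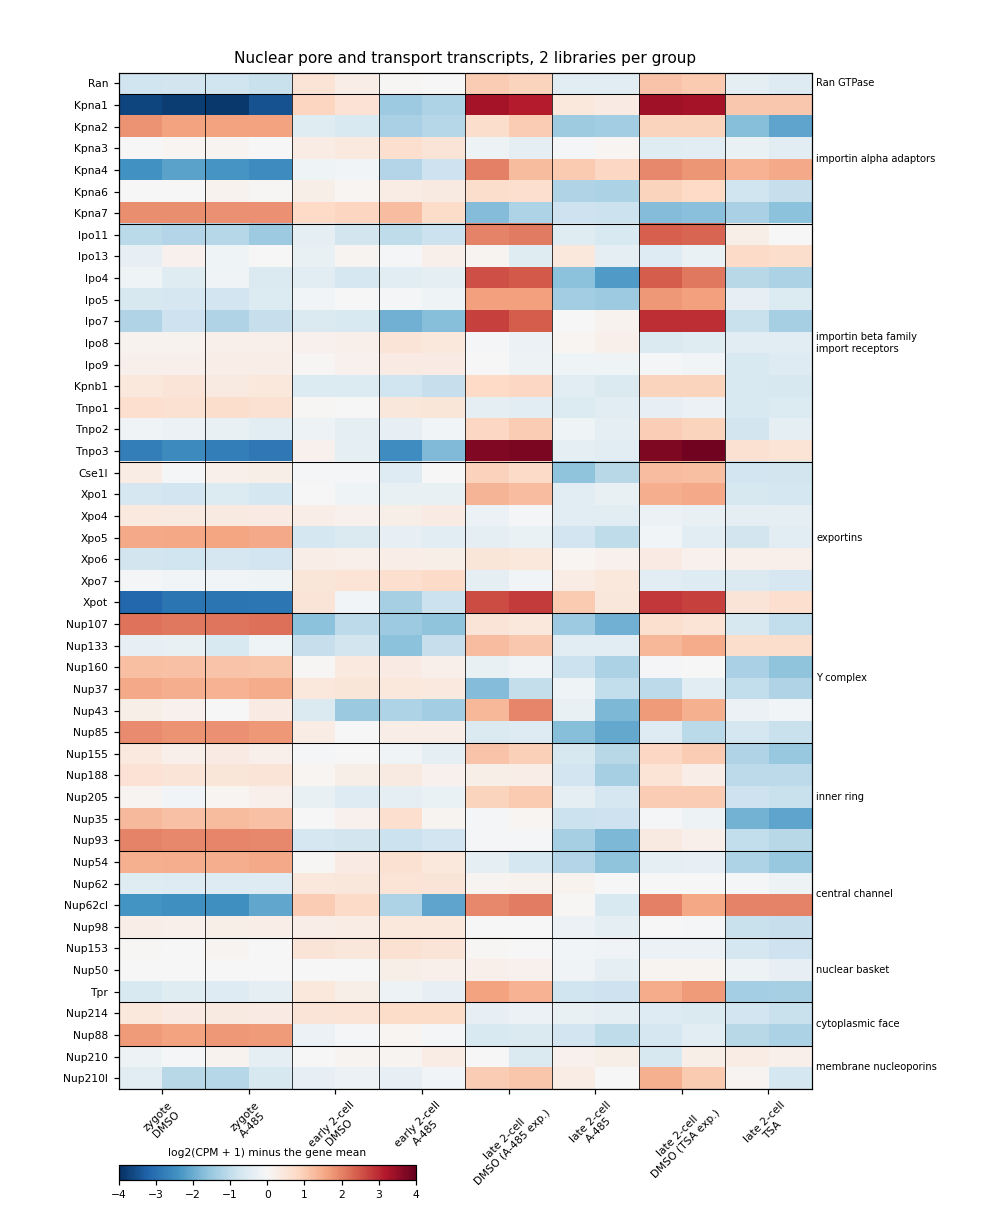
Level of each of the 47 members in each of the 16 libraries, drawn by colour as log2(CPM + 1) minus the mean of that gene over the libraries (red above, blue below), with members grouped by role in rows and the 2 libraries of each stage and treatment side by side in columns. Kpna1, Tnpo3 and Xpot are dark blue in zygotes and dark red in DMSO-treated late 2-cell embryos, while Nup88, Nup93 and Kpna7 are reddest in zygotes.

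The make-up of the importin alpha family changed with stage. Levels of different genes are compared here by FPKM, which is scaled to transcript length. Kpna2, the adaptor typical of dividing and embryonic cells, held 45.7 and 41.6% of the summed FPKM of the 6 genes in DMSO-treated zygotes, and Kpna3 held 28.5 and 30.3% and Kpna7 18.8 and 19.3%. In early 2-cell embryos Kpna3 came first with 55.2 and 57.3%, and Kpna2 had 15.7 and 13.8%. In late 2-cell embryos Kpna3 (32.0 and 30.6%), Kpna2 (28.6 and 37.9%) and Kpna1 (26.2 and 17.2%) shared the total, and their libraries overlapped or lay close together. The second DMSO group of late 2-cell embryos gave 23.6 and 22.8%, 29.2 and 26.9%, and 28.6 and 32.5%.

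With either inhibitor, Kpna3 held the largest share in late 2-cell embryos. It had 67.9 and 69.5% in A-485-treated and 57.3 and 59.8% in TSA-treated late 2-cell embryos, above both DMSO groups of that stage and, with TSA, about the level of DMSO-treated early 2-cell embryos. The level of Kpna3 itself did not pass the test in either comparison (506 and 451 CPM with DMSO against 558 and 615 with A-485, and 413 and 435 against 477 and 427 with TSA), while the summed FPKM of the family was 236 and 246 against 397 and 393 with A-485 and 241 and 208 against 440.0 and 482 with TSA. The shares follow FPKM and were given no test.

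**Figure D2:**
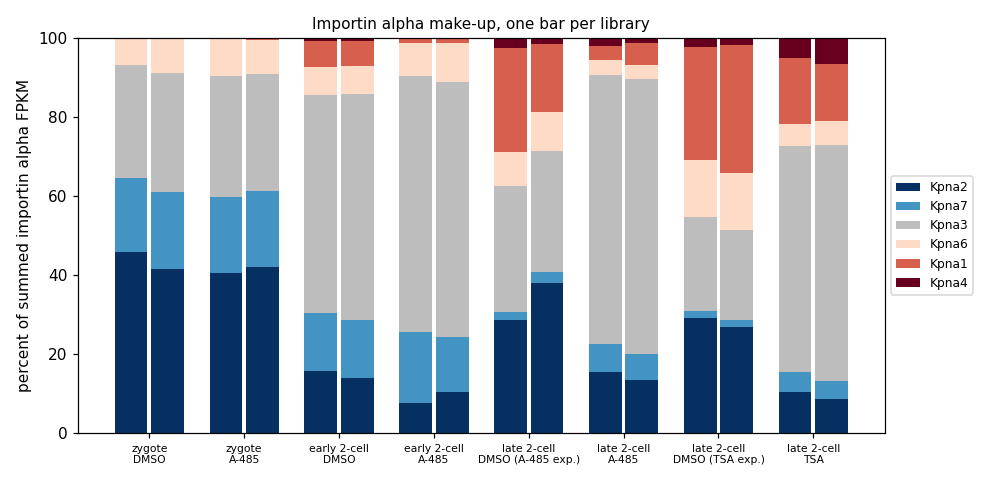
Percent of the summed FPKM of the 6 importin alpha genes held by each gene, with 1 stacked bar per library for the 8 groups. Kpna2 and Kpna3 hold the largest shares in zygotes, Kpna1 appears in 2-cell embryos, and Kpna3 makes up most of each bar in inhibitor-treated late 2-cell embryos, from 57.3 to 69.5%.

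A-485 had no detectable effect on these genes in zygotes. None of the 42 expressed members was called lower or higher, with edgeR or with DESeq2, and none had an unadjusted p under 0.05, where 0.101% of all genes were called lower and 0.00839% higher. Ran, for example, was at 28.4 and 26.5 CPM with A-485 and 28.3 and 29.7 with DMSO. Fitted changes of the expressed members ran from -0.23 ± 0.33 (Tnpo3) to 0.15 ± 0.51 (Kpna1), with a median of -0.02 and of 0.01 for all genes.

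In early 2-cell embryos, A-485 lowered a few members, among them import receptors, importin alpha genes and an exportin. Of 45 expressed members, 6 were called down-regulated and none up-regulated, where 12.7% of all genes were called lower and 0.647% higher. DESeq2 also called none higher, and 4 members had an unadjusted p under 0.05 in that direction. Without the fold limit, 11 passed lower and 2 higher, where 15.6% and 2.26% of all genes did. The share called lower was thus near the background, and the medians of members and of all genes were both -0.01.

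The 6 genes were Kpna1, Tnpo3, Xpot, Ipo7, Kpna4 and Nup62cl. Kpna1 was at 9.36 and 11.1 CPM with A-485 against 50.0 and 41.4 with DMSO, and Tnpo3 at 3.15 and 5.77 against 25.1 and 16.7. Ipo7, which carries ribosomal proteins and histone H1, was at 14.7 and 17.3 CPM against 38.7 and 38. In all 3 the treated libraries lay below the DMSO libraries, with log2 changes of -2.22 ± 0.18 (adjusted p = 2.81e-06), -2.28 ± 0.31 (adjusted p = 0.000275) and -1.32 ± 0.16 (adjusted p = 0.000118). Xpot (3.3 and 4.86 against 14.3 and 8.99 CPM) fell by 1.57 ± 0.32 on the log2 scale, and Nup62cl (1.3 and 0.273 against 10.0 and 8.28 CPM) by 3.61 ± 0.53. The call for Kpna4 (3.6 and 4.77 against 8.11 and 8.47 CPM, log2 change -1.04 ± 0.30, adjusted p = 0.0388) was lost with DESeq2 (adjusted p = 0.0732) and without the first A-485 library (-0.86), the first DMSO library (-1.07) or the second DMSO library (-1.02).

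Abundant members moved less at this stage. Tpr was at 452 and 419 CPM with A-485 against 694 and 610 (log2 change -0.65 ± 0.08), Kpna2 at 54.5 and 60.7 against 96.3 and 87.0 (-0.73 ± 0.11), and Kpnb1 at 112 and 104 against 134 and 135 (-0.37 ± 0.09), with treated libraries lower in each. The 2 members that passed higher were Tnpo1, a receptor for RNA-binding proteins with proline-tyrosine signals (828 and 840 against 627 and 591 CPM, 0.39 ± 0.06), and Ipo8 (1198 and 1132 against 947 and 975 CPM, 0.22 ± 0.06). Ran (51.5 and 50.7 against 73.5 and 60.2 CPM, -0.45 ± 0.13, adjusted p = 0.0381) and Xpo1 (204 and 205 against 254 and 225 CPM, -0.29 ± 0.09, adjusted p = 0.0458) passed narrowly. Neither passed without the first DMSO library (-0.29 and -0.19) or without either A-485 library. Both also did not pass with RLE size factors (adjusted p = 0.0522 and 0.0727) or with all 16 libraries in 1 fit (adjusted p = 0.0542 and 0.103). The change of Ipo8 did not pass without the first A-485 library (0.17) or either DMSO library (0.20 and 0.23), nor that of Kpnb1 without the second A-485 library (-0.32). With mitochondrial scaling, Ran, Xpo1, Kpnb1, Tnpo1 and Ipo8 did not pass (adjusted p = 0.127, 0.292, 0.15, 0.0768 and 0.494).

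The promoters of 5 of the 6 genes that A-485 lowered in early 2-cell embryos (RefSeq sequence, GRCm38.p6) were read for common promoter elements. Kpna7, which fell with stage and did not pass in either late 2-cell comparison, is shown for contrast. Each stretch runs 5′ to 3′ on the strand of the gene, and capitals mark the letters of a searched element on either strand. Annotated exons were left out, and a stretch holds at most 200 bases. That of Nup62cl holds 106 bases and ends 144 bases before the RefSeq start. Those of Kpna4, Tnpo3 and Ipo7 end 21, 38 and 41 bases before it.
Nup62cl, chrX:140062713-140062818, minus strand: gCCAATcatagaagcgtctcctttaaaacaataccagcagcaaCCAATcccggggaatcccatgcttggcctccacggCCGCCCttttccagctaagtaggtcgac
Xpot, chr10:121626333-121626532, minus strand: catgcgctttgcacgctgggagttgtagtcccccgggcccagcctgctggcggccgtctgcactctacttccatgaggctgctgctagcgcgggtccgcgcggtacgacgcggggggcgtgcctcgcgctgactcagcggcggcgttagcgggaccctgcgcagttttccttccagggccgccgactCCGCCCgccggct
Kpna4, chr3:69127114-69127313, minus strand: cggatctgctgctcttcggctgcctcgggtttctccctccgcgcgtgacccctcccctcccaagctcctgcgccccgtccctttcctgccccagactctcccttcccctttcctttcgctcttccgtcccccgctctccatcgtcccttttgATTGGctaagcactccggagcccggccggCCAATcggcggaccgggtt
Tnpo3, chr6:29609888-29610087, minus strand: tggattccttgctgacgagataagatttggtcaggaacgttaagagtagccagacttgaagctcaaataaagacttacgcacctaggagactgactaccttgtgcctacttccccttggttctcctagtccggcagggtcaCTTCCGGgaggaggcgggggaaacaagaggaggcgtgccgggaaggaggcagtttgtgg
Ipo7, chr7:110018074-110018273, plus strand: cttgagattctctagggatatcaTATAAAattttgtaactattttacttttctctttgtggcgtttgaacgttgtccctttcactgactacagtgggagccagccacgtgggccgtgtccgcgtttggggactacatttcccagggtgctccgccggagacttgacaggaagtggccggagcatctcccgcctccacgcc
Kpna7, chr5:145009637-145009836, minus strand: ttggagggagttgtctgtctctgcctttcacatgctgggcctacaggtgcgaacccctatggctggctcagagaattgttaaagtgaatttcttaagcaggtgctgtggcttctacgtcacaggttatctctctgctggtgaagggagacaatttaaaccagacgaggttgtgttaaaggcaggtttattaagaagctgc

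The 5 lowered genes shown have no element in common in these stretches. Nup62cl and Kpna4 each held a pair of CCAAT boxes (CCAAT), Nup62cl and Xpot a GC box (GGGCGG) and Tnpo3 an ETS-like core (CCGGAAG). Ipo7 held the letters of a TATA box (TATAAA), with the first base at -218 from the RefSeq start. The Kpna7 stretch held none of the letters searched. Over whole windows of 250 bases before to 50 after a start, 37 of the 47 members matched the table with 44 windows. The members not matched were Cse1l, Kpna1, Kpna3, Kpna6, Nup210l, Nup35, Nup43, Nup85, Xpo4 and Xpo7. In the whole windows, Kpna4 also held a GC box, and Kpna7 held a CCAAT box that lay outside the stretch shown. GC boxes were in 65.9% of member windows against 35.7% of all 32851 windows, CCAAT in 54.5 against 37.4%, the ETS-like core in 15.9 against 8.9%, an NRF1-like core (TGCGCATGC) in 6.8 against 1.5% and TATAAA in 9.1 against 13.6%, counting both strands. None of these strings contains another, and the median GC content was 64.5% in member windows and 52.7% in all, so that shares of GC-rich letters and base composition move together here. A match is a string of letters and no test of binding.

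In late 2-cell embryos, A-485 lowered members from nearly every part of the transport system. Of 46 expressed members, 24 were called down-regulated and none up-regulated, where 23.8% of all genes were called lower and 15% higher. Without the fold limit 30 passed lower and 2 higher, where 28.7% and 19.5% of all genes did. DESeq2 also called none higher, and 4 members had an unadjusted p under 0.05 in that direction. The median change of the members was -1.3 and that of all genes 0.02. Scaling to mitochondrially encoded genes lowered the median of all genes by 0.98 and gave 39 members called lower, with medians of -2.28 for members and -0.96 for all genes.

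Of the 11 import receptors, 7 were called lower: Ipo4, Tnpo3, Ipo5, Ipo11, Ipo7, Kpnb1 and Tnpo2. Ipo4, which imports histones and ribosomal proteins, was at 3.29 and 1.77 CPM with A-485 against 78.6 and 71.8 with DMSO, below the 10.8 and 8.57 CPM of DMSO-treated zygotes. Tnpo3 was at 16.7 and 15.8 CPM against 296 and 315, and Ipo5, a carrier of histones and ribosomal proteins, at 49.4 and 46.7 against 413 and 405. No treated library came near a DMSO library for these 3 genes, whose log2 changes were -4.93 ± 0.29 (adjusted p = 7.58e-08), -4.27 ± 0.14 (adjusted p = 3.98e-09) and -3.13 ± 0.12 (adjusted p = 7.4e-09). Ipo7 was at 58.5 and 65.0 CPM against 391 and 317 (-2.56 ± 0.14), and Kpnb1 at 143 and 132 against 343 and 355 (-1.38 ± 0.12). Tnpo1 (409 and 443 against 456 and 450 CPM, -0.12 ± 0.10) and Ipo13 (11.6 and 6.26 against 9.1 and 5.72 CPM, 0.24 ± 0.42) did not pass. Ipo8 passed higher (889 and 968 against 793 and 708 CPM, 0.27 ± 0.09), but came out lower (-0.70) with mitochondrial scaling and was lost without either A-485 library (0.33 and 0.24) or the second DMSO library (0.21).

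Among importin alpha genes, Kpna1, Kpna2 and Kpna6 were called lower. Kpna1 was at 36.7 and 34.5 CPM with A-485 against 285 and 249 with DMSO (-2.94 ± 0.14), and Kpna2 at 50.1 and 50.7 against 222 and 272 (-2.33 ± 0.14), with all treated libraries lower. Kpna4 was at 20.3 and 17.2 against 40.6 and 23.6 CPM (-0.81 ± 0.27, adjusted p = 0.0366), and without the first DMSO library its change was -0.33 (adjusted p = 0.463). The change of Kpna4 also did not pass with DESeq2 (adjusted p = 0.0561), RLE size factors (0.0524) or total counts (0.0891). Kpna7 was at 34.5 and 33.9 CPM against 18 and 26.1 (0.60 ± 0.23, adjusted p = 0.0617), so the treated libraries were the higher ones without passing the test.

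Of the 7 exportins 3 were called lower, as was Ran. Cse1l, which returns importin alpha to the cytoplasm, was at 13.3 and 19.0 CPM with A-485 against 82.1 and 73.5 (-2.30 ± 0.21), Xpo1 at 186 and 205 against 651 and 589 (-1.70 ± 0.11) and Xpot at 21.2 and 13.6 against 64.6 and 73.0 (-2.02 ± 0.23). Ran was at 37.5 and 37.5 CPM against 102 and 94.8 (-1.43 ± 0.15, adjusted p = 1.44e-05). These 4 genes had no overlap between groups. The other 4 exportins were not called, and Xpo7 passed higher (147 and 162 against 91.9 and 111 CPM, 0.57 ± 0.14), a direction that turned to -0.41 with mitochondrial scaling. The deposited FPKM of Xpot gave a log2 ratio of -2.97 where its CPM gave -1.98, and that of Nup210 gave -0.25 where its CPM gave 0.63, so the size of these changes depends on the measure.

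In the pore itself, most genes of the inner ring and the Y complex were lower. All 5 inner ring genes passed lower and 4 were called (Nup155, Nup188, Nup205 and Nup93), with changes from -1.99 to -0.91. Nup93 was at 12.3 and 8.48 CPM with A-485 against 30.6 and 31.2. Of the 6 Y complex genes, which coat both faces of the pore, Nup107, Nup133, Nup43 and Nup85 were called lower and Nup160 passed. Nup43 was at 6.44 and 1.65 CPM against 22.3 and 34.3 (-2.84 ± 0.49), Nup85 at 7.14 and 5.31 against 16.4 and 17.3 (-1.47 ± 0.31), and Nup37 at 12 and 6.33 against 3.42 and 6.46 (0.86 ± 0.46, adjusted p = 0.158). For Nup43 and Nup85 all treated libraries were lower, while those of Nup37 overlapped. Tpr showed the steepest change among the abundant pore genes, at 301 and 291 CPM against 1588 and 1371 (-2.36 ± 0.10), below its zygote level of 342 and 375. Nup62cl was at 4.62 and 2.59 CPM against 19.8 and 21.4 (-2.55 ± 0.35), and Nup98 at 512 and 469 against 613 and 616 (-0.36 ± 0.10). The change of Nup98 passed, but did not without the second A-485 library (-0.27) or with total counts (-0.17). On the cytoplasmic face, Nup88 (46.9 and 39.2 against 52.8 and 54.1 CPM, -0.35 ± 0.18) and Nup214 (-0.08 ± 0.10) did not pass.

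**Figure D3:**
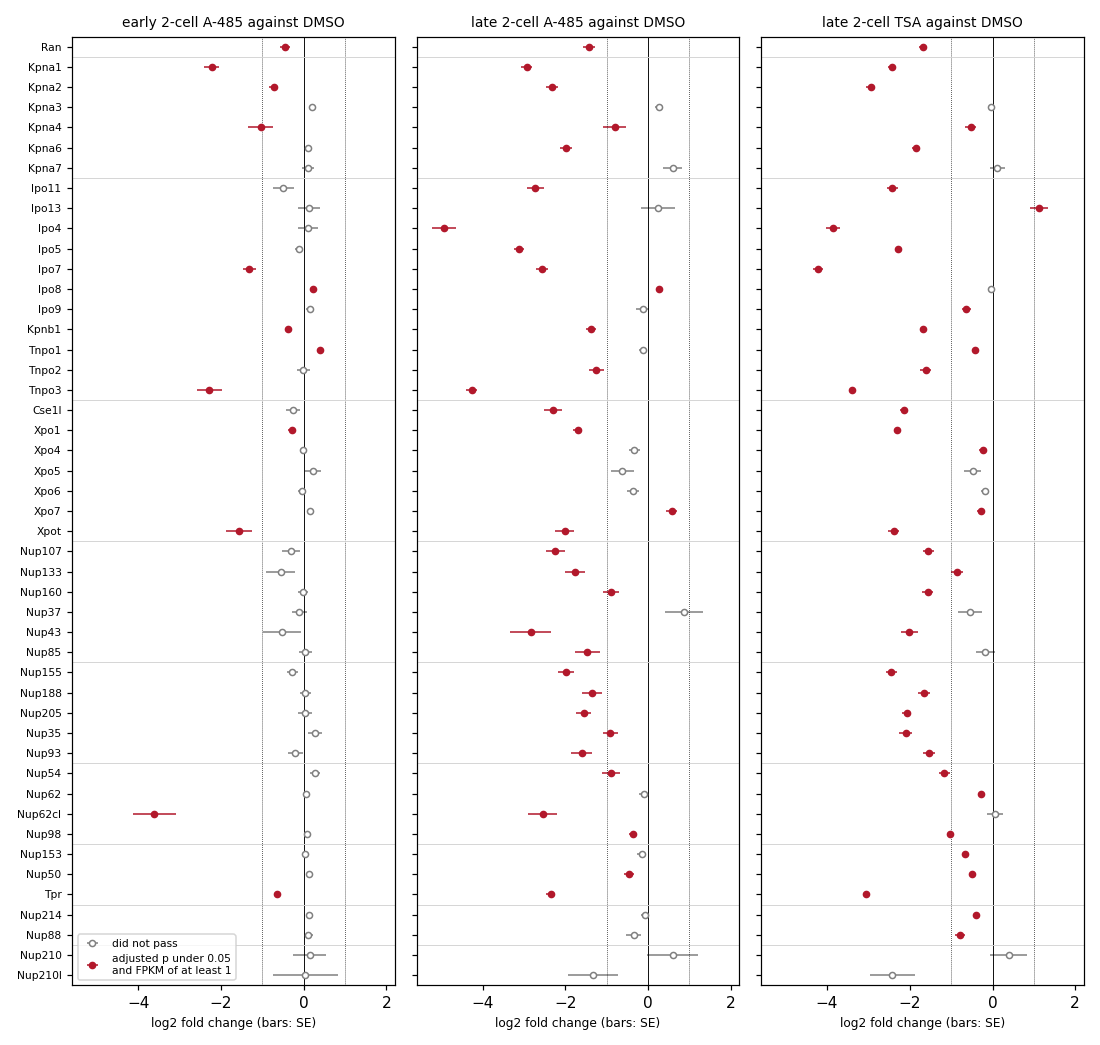
Log2 fold change of each of the 47 members with A-485 in early 2-cell embryos, with A-485 in late 2-cell embryos and with TSA in late 2-cell embryos, each against DMSO, with bars of 1 standard error, members ordered by role and filled points for those that passed the test. Most points of the late 2-cell comparisons lie left of 0, down to -4.93 for Ipo4, while at early 2-cell the furthest left are the 6 called genes and Kpna2 (-0.73) and Tpr (-0.65) also pass lower.

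The effect of A-485 was tested for a difference between stages over the 8 libraries of both 2-cell stages. It was lower at late 2-cell for 27 of 46 expressed members and higher for 1 (Xpo7), where 14.8% and 14% of all genes differed in those directions. The median difference was -0.84 for members and 0.22 for all genes. Ipo4 and Ipo5 showed the largest differences among the named genes, of -4.96 ± 0.36 and -2.92 ± 0.16: at early 2-cell, Ipo4 was at 8.91 and 9.13 CPM with A-485 against 8.75 and 7.33, and Ipo5 at 125 and 116 against 122 and 129. All 5 inner ring genes were also lower by this test. Xpot (-0.37 ± 0.36) and Kpna4 (0.31 ± 0.40), which A-485 had already lowered at early 2-cell, gave no difference that passed. The difference of Nup43 (-2.25 ± 0.64) did not pass without the second early DMSO library (-1.78) or the second late DMSO library (-2.15). That of Xpo7 (0.50 ± 0.17) did not pass when any 1 of 7 of the 8 libraries was left out (0.18 to 0.51), the exception being the first late A-485 library. With mitochondrial scaling Xpo7 turned to -0.56.

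The paper reports that acetylation of histone H3 (H3K27ac) came back to the level of controls once A-485 had been washed off. TSA, the inhibitor of histone deacetylases, also left most members lower in late 2-cell embryos. Of 46 expressed members, 25 were called down-regulated and 1, Ipo13, up-regulated, where 20.2% of all genes were called lower and 20.2% higher. Without the fold limit 36 passed lower and 1 higher, where 30.4% and 25% of all genes did. The median change was -1.35 for members and -0.03 for all genes. The same 7 import receptors as with A-485 were called lower, all 5 inner ring genes, Ran, Cse1l, Xpo1, Xpot, Tpr, Kpna1, Kpna2 and Kpna6, and Nup43, Nup107, Nup160, Nup54 and Nup98.

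Ipo7 fell furthest, at 31.3 and 22.4 CPM with TSA against 458 and 455 with DMSO (-4.22 ± 0.13, adjusted p = 6.1e-09). Ipo4 was at 5.1 and 4.54 CPM against 70.3 and 56.9 (-3.85 ± 0.17), and Tnpo3 at 34.2 and 32.3 against 308 and 333 (-3.40 ± 0.08). The groups were far apart for all 3. Tpr was at 202 and 209 CPM against 1455 and 1696 (-3.07 ± 0.07) and Kpna2 at 40.8 and 30.5 against 248 and 253 (-2.95 ± 0.12), both lower in each treated library. Ran was at 38.8 and 34.5 CPM against 111 and 105 (-1.69 ± 0.10), and Nup98 at 325 and 320 against 608 and 591 (-1.03 ± 0.06). Ipo13, a bidirectional carrier that imports and exports different proteins, was at 14.8 and 14.1 CPM against 5.52 and 6.68 (1.12 ± 0.22). It was the only member called higher in an inhibitor comparison with TMM, and it was no longer called with mitochondrial scaling or without the first DMSO library. Nup62cl (20.4 and 20.5 against 20.8 and 15 CPM, 0.06 ± 0.19) and Nup85 (15 and 13 against 17.2 and 11.4 CPM, -0.17 ± 0.23) did not pass.

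Both late 2-cell comparisons called 21 members lower, which was 87.5% of those called with A-485 and 84% of those called with TSA. The comparisons share no library. Over all genes, 2401 were called lower with both, 62.8% of those called with A-485 and 73.9% of those called with TSA. Across the 47 members the log2 changes of both comparisons had a Pearson r of 0.81 and a Spearman rho of 0.79, where all 13916 genes expressed in both had 0.62 and 0.62. These are descriptions across genes, which are not independent replicates, and the members were not tested against other genes. Nup133, Nup62cl and Nup85 were called with A-485 and not with TSA, and Nup160, Nup35, Nup54 and Nup98 with TSA and not with A-485.

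The difference between both effects was tested over the 8 late 2-cell libraries, each effect against its own DMSO group. A-485 gave the lower value for 8 of 46 members and the higher value for 7, where 18.2% and 6.27% of all genes differed in those directions. The effect on Nup62cl was lower with A-485 by 2.72 ± 0.39 log2 units (adjusted p = 6.35e-05), on Nup85 by 1.41 ± 0.39, on Ipo4 by 1.19 ± 0.32 and on Tnpo3 by 0.98 ± 0.15, and Ipo5, Kpna1, Nup107 and Nup133 made up the 8. Ipo7 differed the other way (1.55 ± 0.19, adjusted p = 1.27e-05), as did Nup35 (1.07 ± 0.23), Xpo7 (0.74 ± 0.17), Tpr (0.61 ± 0.13), Nup98 (0.56 ± 0.12), Xpo1 (0.48 ± 0.12) and Nup153 (0.40 ± 0.13). Doses and times of the 2 compounds differ, so a difference in size cannot be told apart from one in exposure. Without the second DMSO library of the TSA experiment the lower count was 3, and the changes of Ipo4 (-1.02), Nup85 (-1.12), Kpna1 (-0.55) and Xpo1 (0.48) no longer passed. Nup85 was also lost without the second DMSO library of the A-485 experiment (-1.38) or the first TSA library (-1.3), Ipo4 without the second A-485 library (-0.78) or the first DMSO library of that experiment (-1.12), and Kpna1 without the second TSA library (-0.54). With mitochondrial scaling, 24 members were on the lower side and 1 on the higher, and the differences of Tpr, Nup98 and Xpo1 came out below 0. The DMSO groups of the 2 experiments differed for 1 of 46 members, Ipo8 (-0.39 ± 0.09, adjusted p = 0.0437), lower in the TSA experiment, and for none in the higher direction, by edgeR or DESeq2, where 1.05% of all genes were lower and 2.22% higher. At an unadjusted p under 0.05, 4 members were higher.

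Members that rise between zygote and late 2-cell in control embryos were set beside the inhibitor effects, taking the rise from DMSO libraries of the other experiment so that no library entered both values. With A-485, 14 of the 15 members that rose at least 2-fold were called lower and all 15 passed lower, with a median of -2.55. Of all genes that rose, 58.1% were called lower and 61.6% passed lower, with a median of -1.77. Of the 10 members that fell with stage 3 were called lower (median -0.89), where 6.04% of all such genes were (median 0.39), and of the 22 that did neither 7 were (median -0.34), where 13.9% of all such genes were (median 0.36). With TSA, 12 of 16 that rose were called lower (median -2.29), 5 of 11 that fell (median -0.79) and 8 of 20 others (median -0.65), of which 1 was called higher. The shares over all genes of these classes with TSA were 46.1, 8.13 and 13.4% (medians -0.90, 0.12 and 0.06). A higher share of lowered genes among those that rise was thus seen over all genes too. Across the 47 members the stage change and the effect had a Spearman rho of -0.62 for A-485 and -0.49 for TSA, and across all genes of -0.40 and -0.19. The exceptions lay in both directions. Nup62cl, with the largest fitted gain of the members over the stages, changed by 0.06 ± 0.19 with TSA and did not pass. Kpna4 also rose with stage and changed by -0.81 ± 0.27 with A-485. Its change of -0.53 with TSA passed, but did not without the first DMSO library (-0.44), with total counts (-0.17, adjusted p = 0.323) or with all 16 libraries in 1 fit (-0.40, adjusted p = 0.243), and its FPKM was higher with TSA (12.5 and 13.7 against 9.76 and 8.78). Nup107, which lost mRNA from zygote to late 2-cell, was still called lower with both (-2.24 ± 0.22 and -1.55 ± 0.13).

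**Figure D4:**
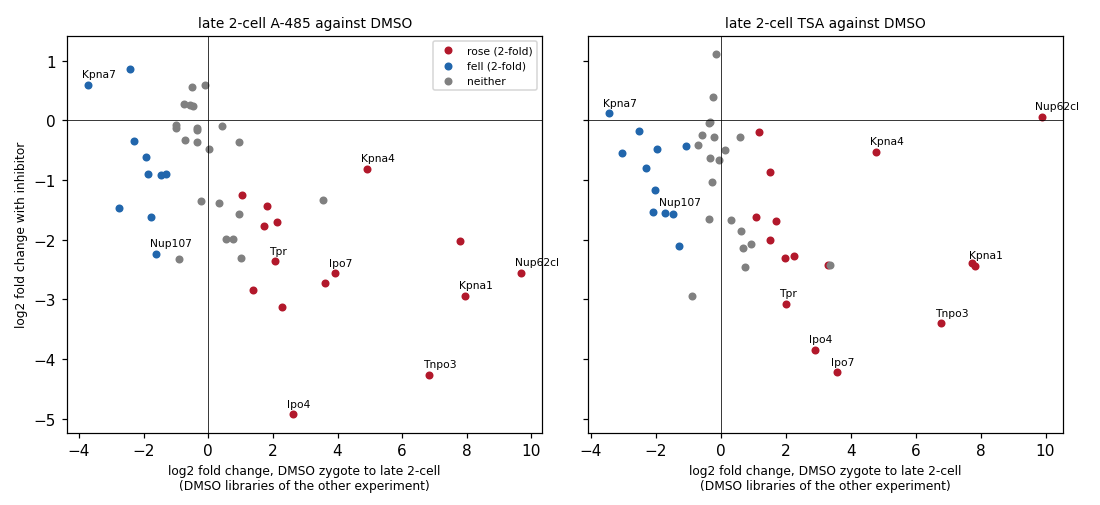
Log2 fold change of each of the 47 members from DMSO-treated zygote to late 2-cell (x axis, from DMSO libraries of the other experiment) against its log2 fold change with A-485 (left) or TSA (right) in late 2-cell embryos (y axis), coloured by whether the member rose, fell or did neither with stage. Points that rose with stage lie low on the right, such as Tnpo3 and Ipo4, and the x position of Nup62cl rests on near-absent counts in zygotes.

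Partner genes of the pathway that carry other symbols were also read, as 33 listed genes of the Ran cycle, pore scaffold, mRNA export and other adaptors. With A-485 at early 2-cell 5 of 32 expressed were called lower, near the 12.7% of all genes. At late 2-cell 18 of 33 were called lower with A-485, where 23.8% of all genes were, and 19 of 33 with TSA, where 20.2% were. In the Ran cycle, 5 of 7 were called lower with A-485 and 6 of 7 with TSA. Rangap1, which makes Ran hydrolyse its GTP at the cytoplasmic side, changed by -3.76 ± 0.20 with A-485 and -2.99 ± 0.11 with TSA, and Rcc1, which loads Ran with GTP on chromatin, by -2.0 ± 0.25 and -2.18 ± 0.13. Ranbp2, the large pore protein of the cytoplasmic filaments, changed by -2.02 ± 0.12 and -2.42 ± 0.07. Among mRNA export genes, Nxf1, the main export receptor, changed by -2.59 ± 0.16 with A-485 and -1.85 ± 0.09 with TSA. Thoc5, a subunit of the THO complex, differed most between the inhibitors among these 33, at -5.40 ± 0.26 with A-485 and -0.83 ± 0.10 with TSA (difference -4.69 ± 0.26, adjusted p = 8.28e-10). Snupn, the adaptor that brings small nuclear RNPs back to the nucleus, was at -4.86 ± 0.30 and -2.52 ± 0.14. Only Ranbp6, a relative of Ipo5, was called higher in both late 2-cell comparisons (2.14 ± 0.51 and 2.80 ± 0.19) within this list.

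Promoter accessibility was read from the ATAC-seq peak lists, 1 list per stage and treatment over both replicates, so no test between groups is possible. A promoter peak lay within 1 kb of an annotated start. In late 1-cell embryos 48.9% of members had one with DMSO (95% Wilson interval 35.3 to 62.8%) and 61.7% with A-485 (47.4 to 74.2%), against 26.2 and 24.7% of all protein-coding genes. In early 2-cell embryos it was 80.9% with DMSO (67.5 to 89.6%) and 87.2% with A-485 (74.8 to 94.0%), against 31.8 and 41.0%. Some of these peaks lay at other annotated starts. When only the first start of each gene was used, the early 2-cell shares were 68.1% with DMSO and 83.0% with A-485, against 27.7 and 37.5%. The intervals treat members as independent draws and overlap between treatments. The lists differ in length, with 10214, 7094, 27693 and 13712 peaks in that order. When each list was limited to its 7094 strongest peaks, the early 2-cell shares were 48.9% with DMSO and 70.2% with A-485, and those of all protein-coding genes were 14.3 and 27.8%, so both were higher with A-485.

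Each of the 6 genes that A-485 lowered at early 2-cell had a promoter peak in the A-485 list. Tnpo3 had a promoter peak of 8.15-fold enrichment with A-485 and 6.3-fold with DMSO, Xpot of 8.77 and 8.19-fold, and Nup62cl of 12.3 and 8.42-fold. Only the strongest peak by q-value near any start of a gene was read from each list. For Ipo7 that of A-485 (6.14-fold) covered the start of the promoter shown above, and that of DMSO (10.01-fold) lay at another annotated start. Whether a weaker DMSO peak also lay at the promoter shown was not read. Kpna4 (13.19-fold) and Kpna1 (7.18-fold) had one with A-485 and none in the DMSO list. The 9 members without a promoter peak in early 2-cell DMSO embryos were Kpna1, Kpna2, Kpna4, Kpna7, Nup85, Nup210, Nup210l, Tnpo2 and Xpo4. For Kpna7 the strongest A-485 peak lay at a distant annotated start and not at the RefSeq start shown with the promoter sequences. Whether the enrichments differ between treatments was not tested, as each list is 1 value.

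**Figure D5:**
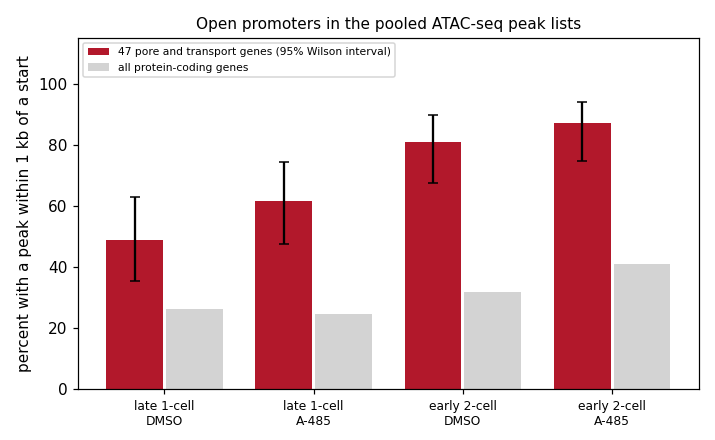
Percent of the 47 members (red, with 95% Wilson intervals) and of all 21897 protein-coding genes (grey) with an ATAC-seq peak within 1 kb of an annotated start, for DMSO or A-485 at late 1-cell and at early 2-cell. Member bars lie above those of all genes in each list, and the member intervals of DMSO and A-485 overlap at both stages.

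Some gene models share sequence with neighbours. Exons of 8 members overlap another gene on the same strand, among them Ipo4, Nup35, Nup62 and Xpo7, and exons of 12 overlap one on the opposite strand, among them Tpr, Kpna7 and Tnpo3. The library kit keeps strand, but the strand setting used in counting is not given in the sources used here, so fragments of these pairs may be shared.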

How the data were processed

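Per the study's methods and the submitters' processing notes, reads of the total RNA-seq libraries (SMART-Seq Stranded kit) were trimmed with Trimmomatic 0.39, mapped to GRCm38 with STAR 2.7.8a and quantified per gene with RSEM 1.3.1. The authors deposited, for each library, the expected count (estimated fragments, those fitting several genes divided among them), the FPKM and another value, the posterior standard deviation of the count. ATAC-seq peaks were made by the authors over both replicates of a group and deposited with a fold enrichment ratio and a −log10 q-value. The build used for ATAC-seq is not given in the sources used here, and the peaks were read as GRCm38, which the processing notes list.

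Expected counts were rounded, genes whose rounded counts reached a total of 10 in the compared libraries were kept, and edgeR 4.0.16 (R 4.3.3) was fitted with TMM within those libraries, using its quasi-likelihood F test and Benjamini-Hochberg adjustment over all genes tested. The standard error is the size of the log2 fold change divided by the square root of F. Differences between effects were contrasts of 1 fit over 8 libraries. The threshold of 2-fold at an adjusted p of 0.05 with 1 FPKM follows the study. Alternatives were DESeq2 1.42.0, other scalings, filters and fold limits, all 16 libraries in 1 fit, the replicate number as a block and leaving out each library. On simulated counts for the late 2-cell A-485 comparison (22475 genes), 60 of 100 genes changed by a log2 fold of 1 and 88 of 100 changed by 2 were recovered, with 1 false call among 149. For the stage difference of the A-485 effect (25050 genes), 20 of 100 and 91 of 100 were recovered, with 6 false calls among 117. Differences near a log2 fold of 1 were thus mostly missed in that simulation. No other genes were changed there, while in the data 2468 genes passed lower and 2334 higher in the test of the stage difference. Recovery in the data can therefore differ from these counts.

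Members, gene lists, roles and tests were chosen with earlier results of these data known. The 25 members named with full values were 8 set by name (Ran, Kpnb1, Cse1l, Xpo1, Tpr, Nup98, Kpna2, Kpna7) and up to 5 in each direction with the largest change that passed in each of the 4 inhibitor comparisons and from zygote to late 2-cell, and other members are named where a role or a count is accounted for. Kpna3, Kpna6, Nup62, Nup153 and similar names outside that rule were chosen after their values were seen. Intervals of shares are Wilson intervals and cover counting error only. CUT&RUN samples of the series were not used here.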

Additional observations from a re-analysis of the deposited data

Results flagged for a closer look

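Differences of 2 kinds between effects passed edgeR's test (adjusted p under 0.05). The first was the effect of A-485 at late 2-cell minus that at early 2-cell. It was lower at late 2-cell for Ipo4 (-4.96), Ipo5 (-2.92), Nup43 (-2.25), Cse1l (-1.96), Tnpo3 (-1.91), Tpr (-1.63), Kpna2 (-1.52), Nup85 (-1.43), Nup93 (-1.33), Xpo1 (-1.33), Ipo7 (-1.15), Kpnb1 (-0.93), Ran (-0.90), Kpna1 (-0.64), Tnpo1 (-0.43) and Nup98 (-0.37), and higher for Xpo7 (0.50). The differences of Kpna1, Nup43, Nup98, Tnpo1 and Xpo7 did not pass without at least 1 of the 8 libraries. Those of Kpna1, Nup98 and Tnpo1 also did not pass with total counts (-0.51, -0.24 and -0.31), nor that of Xpo7 with DESeq2 (0.41), RLE size factors (0.41) or all 16 libraries in 1 fit (0.39).

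The second was the effect of A-485 minus that of TSA at late 2-cell. It was lower with A-485 for Nup62cl (-2.72), Nup85 (-1.41), Ipo4 (-1.19), Tnpo3 (-0.98), Ipo5 (-0.96) and Kpna1 (-0.61), and higher for Ipo7 (1.55), Xpo7 (0.74), Tpr (0.61), Nup98 (0.56) and Xpo1 (0.48). The values of Tpr, Nup98 and Xpo1 turned sign with mitochondrial scaling and that of Xpo7 did not pass (0.05). This scaling moved the median of all genes by -0.68. The part of library make-up in these differences was not tested.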

How the results depend on the processing

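Of 1279 recomputed values of named genes, 1187 kept direction and side of the threshold, 83 kept direction without passing and 9 turned sign. Scaling to mitochondrially encoded genes had the widest reach. It gave 39 members lower at late 2-cell with A-485, 0 higher with TSA, 30 lower from zygote to early 2-cell, 25 lower and 8 higher from zygote to late 2-cell, 24 lower and 1 higher for A-485 minus TSA, 0 higher for the stage difference and 0 lower between the DMSO groups. It turned the late A-485 changes of Ipo8 (-0.70) and Xpo7 (-0.41), the zygote to late 2-cell changes of Cse1l (-0.63) and Kpnb1 (-1.01), the stage difference of Xpo7 (-0.56) and the A-485 minus TSA differences of Nup98 (-0.14), Tpr (-0.07) and Xpo1 (-0.20). Total counts moved the median of all genes by 0.19 with A-485 and 0.36 with TSA at late 2-cell and turned Xpo7 with TSA to 0.08. These turns follow from the scaling, and which scaling is nearer the RNA per embryo was not tested.

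A limit of 1.5-fold gave 10 higher from zygote to early and 7 lower from early to late 2-cell, where the DMSO libraries of the TSA experiment gave 4. The count higher in the stage difference was 0 with DESeq2, RLE or all 16 libraries and 2 with total counts or the replicate block. A-485 minus TSA had 13 higher with DESeq2. Between the DMSO groups, where alternatives were chosen after seeing the data, all 16 libraries gave 2 lower, and no filter or the replicate block 1 higher. With equal peak numbers the early 2-cell shares were 48.9% (DMSO) and 70.2% (A-485), against 14.3 and 27.8% of all protein-coding genes. Causes of these moves were not tested.

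Leaving out 1 library gave 0 to 0 lower and higher in zygotes, 5 to 6 lower at early 2-cell, 24 to 26 lower and 0 to 1 higher at late 2-cell with A-485, 24 to 25 and 0 to 1 with TSA, 12 to 13 and 6 to 7 from zygote to early, 2 to 2 and 19 to 20 from early to late, 11 to 12 and 15 to 17 from zygote to late 2-cell, 23 to 30 and 0 to 2 for the stage difference, and 3 to 10 and 5 to 9 for A-485 minus TSA. The lone library of a group was then assumed to vary like the other groups. It was not run between the DMSO groups.

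Same-numbered libraries did not deviate together (r from -0.0488 to 0.103). From 2 libraries a group it cannot be told whether those of equal number share a fertilization. With the replicate block the counts of the inhibitor and stage comparisons were 0 and 0, 6 and 0, 24 and 0, 25 and 1, 12 and 6, 2 and 19, and 11 and 16 (lower and higher), as without it. Among named genes, Ipo8 with A-485 at late 2-cell (0.27, adjusted p = 0.0886) and Nup98 from zygote to late 2-cell (-0.28, adjusted p = 0.0514) did not pass with the block. With 2 libraries a group, changes near 2-fold can be missed. They often were in the simulation, which held far fewer changed genes than the data.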

Other observations

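Most expressed genes of the nuclear lamina, the meshwork under the envelope in which pores sit, passed lower in both late 2-cell comparisons. Of 7 listed genes 6 were expressed, and 5 passed lower with A-485 and 6 with TSA, where 28.7% and 30.4% of all genes did. At the 2-fold limit 2 were called lower with A-485 and 3 with TSA, where 23.8% and 20.2% of all genes were, so the first of these counts is near the background. Lbr, the lamin B receptor of the inner membrane, changed by -1.61 ± 0.16 with A-485 and -1.78 ± 0.13 with TSA, and Lmnb1, which encodes lamin B1, by -0.51 ± 0.12 and -0.39 ± 0.08. Tmpo, which encodes lamina-associated polypeptide 2, changed by -0.37 ± 0.12 with A-485 and -1.14 ± 0.10 with TSA.

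Pom121, a membrane anchor of the pore, changed by -1.03 ± 0.10 with A-485 and -1.36 ± 0.07 with TSA. Nupl2, a pore gene with another symbol form in this annotation, did not pass with A-485 (1.23 ± 0.50) or TSA (-0.62 ± 0.36). Nupl1, the gene of the channel nucleoporin Nup58, had a mean under 1 FPKM in the late 2-cell libraries of the A-485 experiment.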
